A study of Mus musculus with 12 samples.

Results

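The circular RNAs of 2 receptor tyrosine kinase genes, Epha3 and Fgfr2, were followed across 4 mouse cell lines. Members were all circRNAs that the deposited tables assign to exactly 1 of these genes, which gave 11 circRNAs of Epha3 and 6 of Fgfr2, together 17 of 13474 listed circRNAs. Reads were found for 16 of them, among 12830 circRNAs with reads. The tumour line 4T1 comes from breast cancer and its counterpart Eph4-ev from breast epithelium; the tumour line B16F10 comes from melanoma and its counterpart Melan-a from melanocytes. Each line had 3 libraries, and no treatment, time point or allele is named in the labels. Total RNA was digested with RNase R, an exonuclease that removes linear RNA, and each value counts reads over a back-splice, where the end of an exon meets the start of the same exon or of one upstream. The series title asks for circRNAs that mark tumour cells and for the peptides they may encode, so 4T1 was set against Eph4-ev and B16F10 against Melan-a. Each lineage holds 1 tumour line and 1 non-tumour line, so the effect of tumour state and other differences between these lines cannot be told apart. The labels do not say whether the 3 libraries of a line came from separate cultures, so p-values measure the spread between libraries, which may be technical.

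Epha3 was chosen by its junction reads in B16F10 and Melan-a, and Fgfr2 was chosen by its junction reads in 4T1 and Eph4-ev. Those levels are therefore described without a test. Neither gene could be tested in the lineage that did not pick it: the mammary table has no row for Epha3, and all 6 rows of Fgfr2 in the melanocyte table stand at 0 reads in all 6 libraries.

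EphA3 and FGFR2 are single-pass membrane receptors with a tyrosine kinase inside the cell. EphA3 binds ephrin-A ligands, which are anchored on neighbouring cells, and steers contact repulsion and cell sorting; its extracellular part holds a ligand-binding domain, a cysteine-rich stretch and fibronectin type III repeats. FGFR2 binds fibroblast growth factors together with heparan sulphate through immunoglobulin-like domains, and its epithelial splice form is known for its part in mammary gland growth and branching. A circRNA forms when the splice machinery joins a downstream donor to an upstream acceptor, so its level depends on transcription of the host, on back-splicing and on the stability of the circle; these cannot be told apart in junction reads from bulk RNA, and neither can fewer cells with a circle and fewer circles per cell.

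What distinguishes each circle from its linear host is the sequence across the back-splice. The junctions of the 3 Epha3 circRNAs and the 3 Fgfr2 circRNAs with the most reads are printed below 5′ to 3′ from the GENCODE M21 transcripts Epha3-201 and Fgfr2-215 (mm10, both genes on the minus strand), with the last 30 bases of the closing exon in lower case and the first 30 bases of the opening exon in capitals. The last line gives the whole Fgfr2 circle of exons 5 to 6, opened at the start of exon 5, with exon 6 in capitals.
Epha3 exon 3, chr16:63772910-63772939 joined to chr16:63773541-63773570: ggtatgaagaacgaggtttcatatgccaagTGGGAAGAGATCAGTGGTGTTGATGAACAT
Epha3 exons 4 to 5, chr16:63652215-63652244 joined to chr16:63653549-63653578: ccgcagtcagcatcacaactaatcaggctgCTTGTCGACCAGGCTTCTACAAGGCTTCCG
Epha3 exons 8 to 11, chr16:63595558-63595587 joined to chr16:63603604-63603633: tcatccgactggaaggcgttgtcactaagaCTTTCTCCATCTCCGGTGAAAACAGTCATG
Fgfr2 exons 5 to 6, chr7:130218998-130219027 joined to chr7:130228763-130228792: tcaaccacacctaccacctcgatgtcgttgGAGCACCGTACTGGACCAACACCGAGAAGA
Fgfr2 exons 3 to 4, chr7:130241200-130241229 joined to chr7:130242615-130242644: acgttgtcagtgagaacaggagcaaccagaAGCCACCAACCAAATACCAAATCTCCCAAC
Fgfr2 exons 3 to 6, chr7:130218998-130219027 joined to chr7:130242615-130242644: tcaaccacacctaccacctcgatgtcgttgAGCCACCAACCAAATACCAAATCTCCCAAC
Fgfr2 exons 5 to 6, whole circle, chr7:130218998-130228792: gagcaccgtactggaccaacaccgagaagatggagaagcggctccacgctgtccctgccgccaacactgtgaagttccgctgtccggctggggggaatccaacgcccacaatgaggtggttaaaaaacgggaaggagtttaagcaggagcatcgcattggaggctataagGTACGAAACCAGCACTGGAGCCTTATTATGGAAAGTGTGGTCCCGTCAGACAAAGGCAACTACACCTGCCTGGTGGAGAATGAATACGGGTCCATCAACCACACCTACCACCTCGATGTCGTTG

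The 3-to-6 junction of Fgfr2 is built from the closing side of the 5-to-6 junction and the opening side of the 3-to-4 junction, which the matching lower-case and capital runs show. In the same way, several of the less abundant Epha3 circles reuse the opening site of exon 4 or exon 8. The whole Fgfr2 circle is 294 bases long, and its exons keep the reading frame of the receptor when the circle is closed.

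Depth differed between the lines. A 4T1 library held 15572 to 44625 junction reads, an Eph4-ev library 50648 to 56649, a B16F10 library 16697 to 20011 and a Melan-a library 25072 to 33557, so that 1 read stood for 17.7 to 64.2 RPM, the unit of the tables, in which the junction reads of a library are scaled to a common total. A count of 0 over the 3 libraries of a line allows up to 3 reads. That is 38.5 RPM in 4T1, 18.4 in Eph4-ev, 55.9 in B16F10 and 35.8 in Melan-a. Such floors and the exact 95% intervals below cover counting error only. A fold given as at least a value takes the reads of the other line as exact, so on few reads the true bound is lower. The 2 tables were made separately, so levels are compared within a lineage. Some abundant circRNAs were missing from single libraries: 3 of the 141 circRNAs with at least 50 reads in a 4T1 library had 0 in another, as did 3 of 225 in Eph4-ev, 1 of 37 in B16F10 and 2 of 103 in Melan-a.

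As a check of the labels, circRNAs of 8 of 14 melanocyte marker genes had reads in B16F10 and 9 of 14 in Melan-a, with summed levels of 10978 to 12743 RPM and 5525 to 9476 RPM per library. In 4T1 none of these 14 had reads, and in Eph4-ev 1 did (Mitf). Circles of 5 of 13 epithelial markers had reads in both mammary lines (1284 to 2030 RPM in 4T1 and 2764 to 3125 RPM in Eph4-ev), against 0 of 13 in B16F10 and 1 of 13 in Melan-a. The keratins, Mlana, Mc1r and Kit stood at 0 in all 12 libraries, a statement about circles and not about their mRNAs. Mesenchymal markers had reads for 0 of 11 genes in 4T1, 2 in Eph4-ev (118 to 177 RPM), 1 in B16F10 (99.9 to 120 RPM) and 2 in Melan-a (0 to 359 RPM), and immune markers for 0 of 8 in each line. The summed melanocyte markers were thus higher in B16F10 and the summed epithelial markers lower in 4T1, the same sides as Epha3 and Fgfr2, but single markers differed. Pmel held most of the melanocyte sum (8263 to 10044 RPM in B16F10 and 3458 to 6377 RPM in Melan-a), while Trpm1 had 236 to 600 RPM in B16F10 and 596 to 1276 RPM in Melan-a. Of the epithelial markers Myo5b had 64.2 to 426 RPM in 4T1 and 1152 to 1677 RPM in Eph4-ev, whereas the lines overlapped for Epcam (113 to 471 RPM in 4T1 and 126 to 247 RPM in Eph4-ev), Grhl2 (385 to 902 RPM and 406 to 630 RPM) and Esrp1 (224 to 733 RPM and 592 to 990 RPM). The part of these shifts in the levels of the receptor circRNAs was not tested.

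Summed over its 11 circRNAs, Epha3 had 88, 67 and 72 junction reads in the B16F10 libraries, against 9, 20 and 18 in the Melan-a libraries. The level was 4221 ± 235 RPM in B16F10 and 557 ± 181 RPM in Melan-a (SD, n = 3 each), with every B16F10 library (3954 to 4398 RPM) above every Melan-a library (359 to 716 RPM). The ratio of the means was 7.58, and the ratio of pooled reads 7.54 (95% exact counting interval 5.49 to 10.6). Epha3 ranked 25 among the 2867 host genes with reads in B16F10, and 376 among 2835 in Melan-a.

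Fgfr2 showed the other extreme in the mammary lines. Summed over its 5 circRNAs it had 0, 0 and 0 reads in the 4T1 libraries, against 78, 55 and 55 in the Eph4-ev libraries. Its level in Eph4-ev was 1167 ± 323 RPM (SD, n = 3; 971 to 1540 RPM), and against the floor of 3 reads in 4T1 the pooled level was at least 29.99-fold lower in 4T1. It ranked 176 among 3253 host genes with reads in Eph4-ev. No library of either melanocyte line held a read of Fgfr2. Within the lineages, the order was therefore B16F10 above Melan-a for Epha3 and Eph4-ev above 4T1 for Fgfr2.

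**Figure D1:**
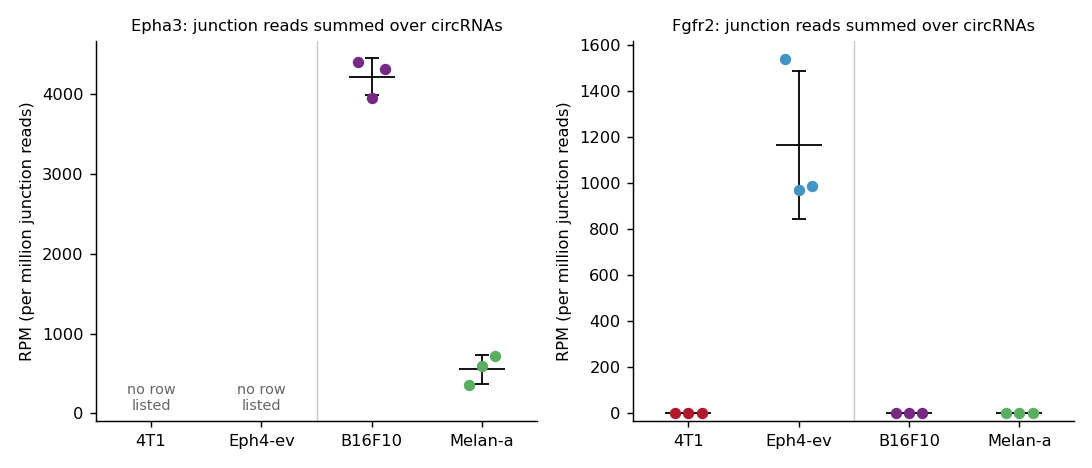
Junction reads in RPM, summed over the circRNAs of Epha3 (left) and Fgfr2 (right), in each library (points), with the mean and SD of the 3 libraries of a line (bars). B16F10 libraries lie between 3954 and 4398 RPM for Epha3, above the Melan-a libraries at 359 to 716 RPM, and for Fgfr2 only the Eph4-ev libraries lie above 0; the mammary table has no row for Epha3.

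Epha3 lies on chromosome 16 from 63543534 to 63864175 (mm10, minus strand, ENSMUSG00000052504.7). Its transcript Epha3-201 has 17 exons and 984 codons, with the start codon in exon 1. Fgfr2 lies on chromosome 7 from 130162451 to 133123350 in the annotation (minus strand, ENSMUSG00000030849.18), and Fgfr2-215 has 18 exons and 840 codons, with the start codon in exon 2. Both ends of all 17 circRNAs fell on exon boundaries of these transcripts. The stretch of 19 codons with the highest mean hydrophobicity (Kyte-Doolittle scale, leaving out the signal peptide region), which in single-pass receptors marks the membrane span, was codons 542 to 560 of Epha3 and 397 to 415 of Fgfr2.

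**Figure D2:**
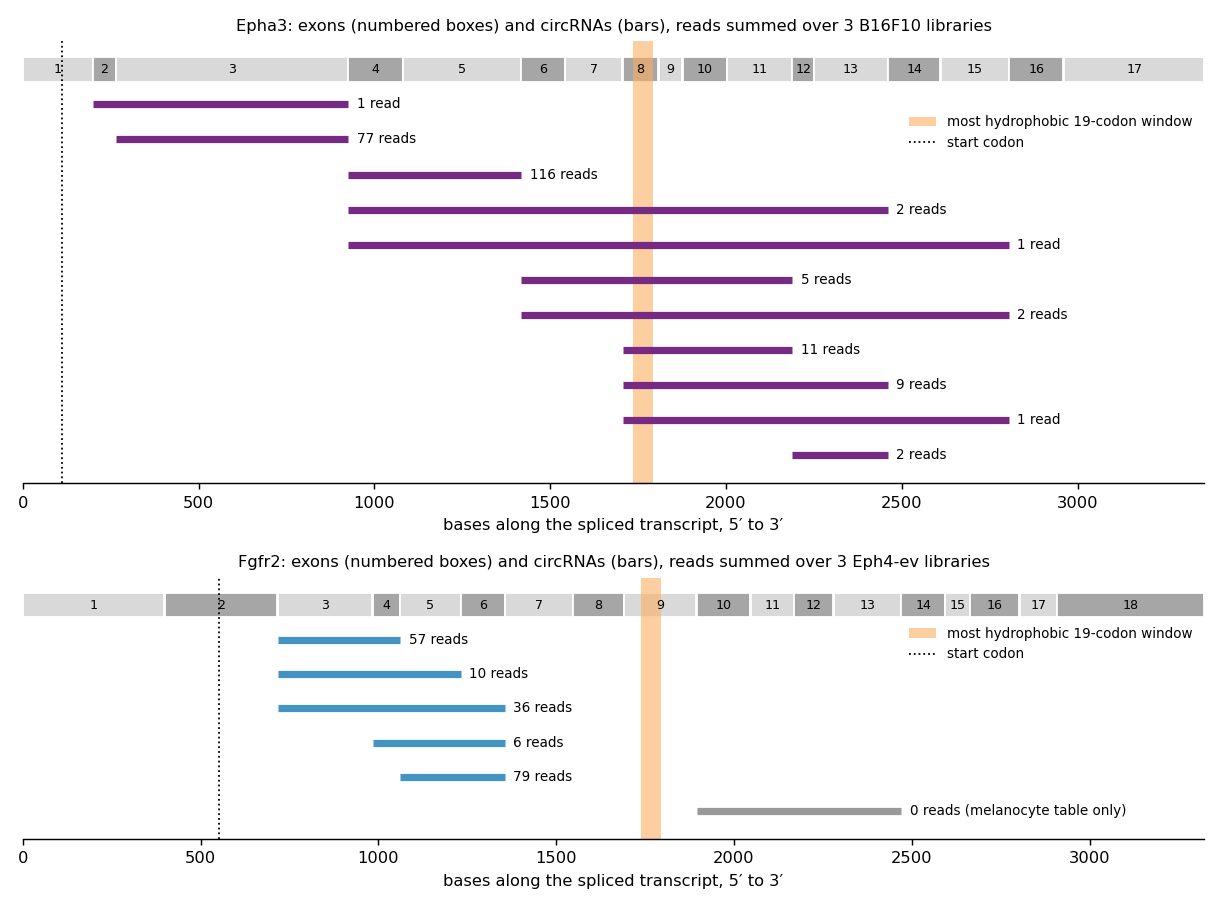
Exons of Epha3-201 and Fgfr2-215 to scale along the spliced transcript in bases, with each circRNA as a bar below, labelled with its reads summed over 3 B16F10 libraries (Epha3) or 3 Eph4-ev libraries (Fgfr2). The start codon (dotted line) is in none of the circles, the 2 most abundant Epha3 circRNAs (116 and 77 reads) and all 5 Fgfr2 circRNAs with reads end before the hydrophobic window (orange), and 7 Epha3 circRNAs cross it.

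Most Epha3 reads came from circles of the extracellular part. The circRNA of exons 4 to 5 (chr16:63652215-63653578, 492 bases, codons 272 to 436) had 47, 38 and 31 reads in B16F10, against 3, 12 and 15 in Melan-a. Its level was 2149 ± 259 RPM in B16F10 and 358 ± 238 RPM in Melan-a (SD, n = 3 each), a ratio of means of 6.01 (pooled 6.04, interval 4.01 to 9.35), and the libraries of the lines did not overlap. The Melan-a libraries spread widely here, with replicate 1 at 120 RPM and replicate 3 at 596 RPM.

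The circRNA of exon 3 alone (chr16:63772910-63773570, 661 bases, codons 52 to 272) had 27, 24 and 26 reads in B16F10, against 4, 8 and 3 in Melan-a. The B16F10 libraries were close to each other, at 1441 ± 106 RPM, and all lay above those of Melan-a, at 172 ± 60.6 RPM (SD, n = 3 each). The ratio of means was 8.36 (pooled 8.02, interval 4.57 to 15.01). The exons 4 to 5 circle begins at the exon after the one that forms the exon 3 circle, so both can come from 1 transcript, and their junction reads do not overlap.

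Among all circRNAs with reads in B16F10, the exons 4 to 5 circle ranked 46 and the exon 3 circle 93 of 6569. In Melan-a they ranked 492 and 1065 of 6533. Their proportion to each other varied: reads of exons 4 to 5 over reads of exon 3 were 1.74, 1.58 and 1.19 in the B16F10 libraries, against 0.75, 1.5 and 5 in the Melan-a libraries. The Melan-a ratios rest on 3 to 15 reads each, and their intervals (0.110 to 4.43, 0.564 to 4.23 and 1.41 to 26.9) take in all 3 B16F10 ratios, except that the lowest of these, 1.19, is under the interval of Melan-a replicate 3.

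The third circRNA with reads in both lines joined exons 8 to 11 (chr16:63595558-63603633, 483 bases, codons 532 to 693), across the membrane segment into the start of the intracellular part. It had 4, 1 and 6 reads in B16F10, against 2, 0 and 0 in Melan-a, and with so few reads its pooled ratio of 8.59 had an interval of 1.87 to 79.7. B16F10 replicate 2 had fewer reads than Melan-a replicate 1, and at this depth the lines overlapped.

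The other 8 circRNAs of Epha3 had reads in B16F10 and 0 in Melan-a. Of all 8857 circRNAs with reads in these lines, 6569 had reads in B16F10 and 6533 in Melan-a, so reads in a single line were common. Exons 8 to 13 (chr16:63583388-63603633) summed to 9 reads, at least 4.69-fold higher in B16F10 than the Melan-a floor, and exons 6 to 11 (chr16:63595558-63612974) to 5 reads, a bound of at least 2.60-fold higher. The bound of exons 6 to 11 takes its 5 reads as exact, so it shows no higher level. The remaining 6, which joined exons 2 to 3, 4 to 13, 4 to 15, 6 to 15, 8 to 15 and 12 to 13, had 1 or 2 reads each, all within 1 library, and no fold is given for them. A sum of 1 or 2 reads is under the floor, so no difference from Melan-a was detectable for these circles at this depth.

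**Figure D3:**
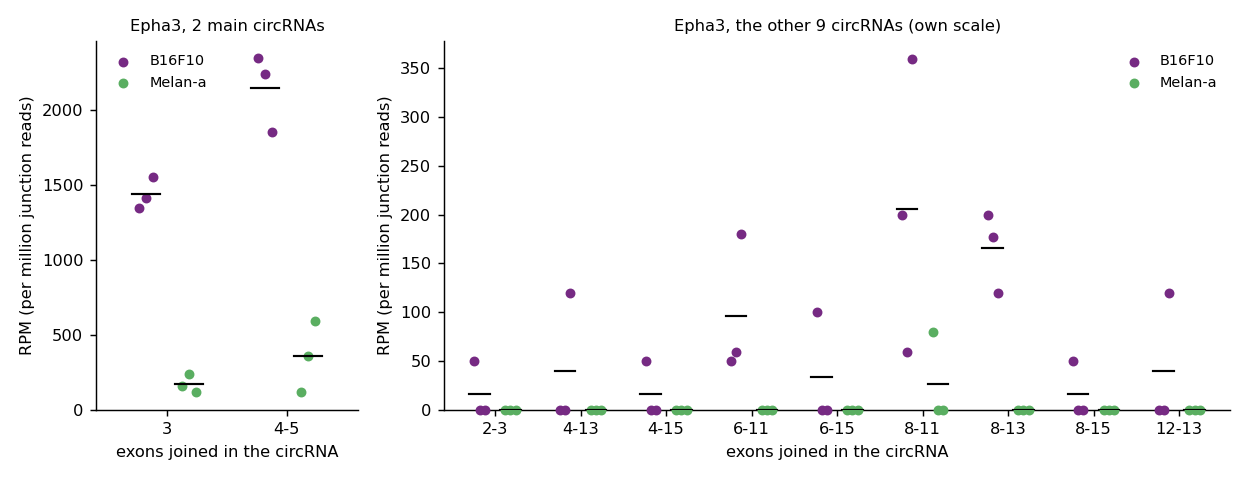
Level of each Epha3 circRNA in RPM per library (points) and line mean (bars), for the 2 main circRNAs (left) and the other 9 on their own scale (right). The exon 3 and exons 4 to 5 circles were higher in each of the 3 B16F10 libraries than in any Melan-a library. Of the other 9, 8 had reads in B16F10 only, most of them 1 or 2 reads. Of all 8857 circRNAs with reads in these lines, 6569 had reads in B16F10 and 6533 in Melan-a.

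B16F10 thus showed reads of 11 different Epha3 circles, and Melan-a of 3. Over single circRNAs, edgeR called 5.03% higher and 5.84% lower of the 874 tested in B16F10 over Melan-a, and 5.99% higher and 11.4% lower of the 1869 tested in 4T1 over Eph4-ev; these contrasts chose the genes, so the shares are background only. Scaled by total reads alone, the calls split into 142 higher and 176 lower in 4T1, against 112 and 213 with TMM factors, and into 55 higher and 47 lower in B16F10, against 44 and 51. In B16F10 33 of 2867 host genes had 11 or more circRNAs with reads, where the median host had 1. In Melan-a 799 of 2835 hosts had 3 or more. The 9 less abundant circles took 15.9%, 7.46% and 20.8% of the Epha3 reads in the B16F10 libraries (exact intervals 8.98 to 25.2%, 2.47 to 16.6% and 12.2 to 32.0%), and 2 of 9, 0 of 20 and 0 of 18 reads in the Melan-a libraries (upper bounds 60.0%, 16.8% and 18.5%). Summed, these shares were 14.98% (34 of 227 reads, 10.6 to 20.3%) in B16F10 and 4.26% (2 of 47 reads, 0.520 to 14.5%) in Melan-a. The intervals overlap, and the difference in these shares was not tested.

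Several splice sites were used by more than 1 Epha3 circle. Exon 4 opened 3 circRNAs (119 reads in B16F10 and 30 in Melan-a, of which 116 and 30 were those of exons 4 to 5), exon 8 opened 3 (21 and 2 reads) and exon 6 opened 2 (7 and 0 reads). Exon 13 closed 3 (13 and 0 reads), exon 15 closed 3 (4 and 0 reads) and exon 11 closed 2 (16 and 2 reads). By position, the 3 circRNAs before the membrane segment held 194 reads in B16F10 and 45 in Melan-a, the 7 across it 31 and 2, and the 1 after it, exons 12 to 13 in the kinase part, 2 and 0.

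In Eph4-ev the Fgfr2 reads were shared more evenly, among circles from exons 3 to 6. The circRNA of exons 5 to 6 (chr7:130218998-130228792, codons 171 to 269, in the immunoglobulin-like part) had 0 reads in each 4T1 library, against 25, 26 and 28 in Eph4-ev. At 486 ± 23.6 RPM (SD, n = 3) it varied little between the Eph4-ev libraries, and it was at least 12.6-fold lower in 4T1. It ranked 371 of 8099 circRNAs with reads in Eph4-ev.

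The circRNA of exons 3 to 4 (chr7:130241200-130242644, 345 bases, codons 56 to 171) had 0 reads in each 4T1 library, against 26, 17 and 14 in Eph4-ev. Its Eph4-ev level was 355 ± 139 RPM (SD, n = 3), with replicate 1 highest at 513 RPM, and it was at least 9.09-fold lower in 4T1. The circRNA of exons 3 to 6 (chr7:130218998-130242644, 639 bases, 213 codons), which spans both of these circles, had 0 reads in each 4T1 library, against 24, 2 and 10 in Eph4-ev. Its level of 230 ± 223 RPM (SD, n = 3) had an SD near its mean, and its bound was at least 5.74-fold lower in 4T1.

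Exons 3 to 5 (chr7:130228623-130242644, 515 bases) had 0 reads in each 4T1 library, against 0, 7 and 3 in Eph4-ev, a bound of at least 1.60-fold lower in 4T1. This bound takes the Eph4-ev reads as exact, so by itself it shows no lower level. Exons 4 to 6 (chr7:130218998-130241277, 372 bases) summed to 0 reads in 4T1 and 6 in Eph4-ev, which is too few to set a bound against the 4T1 floor. The sixth circRNA, exons 10 to 13 in the kinase part (chr7:130177675-130185380), was listed in the melanocyte table at 0 reads and not in the mammary table.

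**Figure D4:**
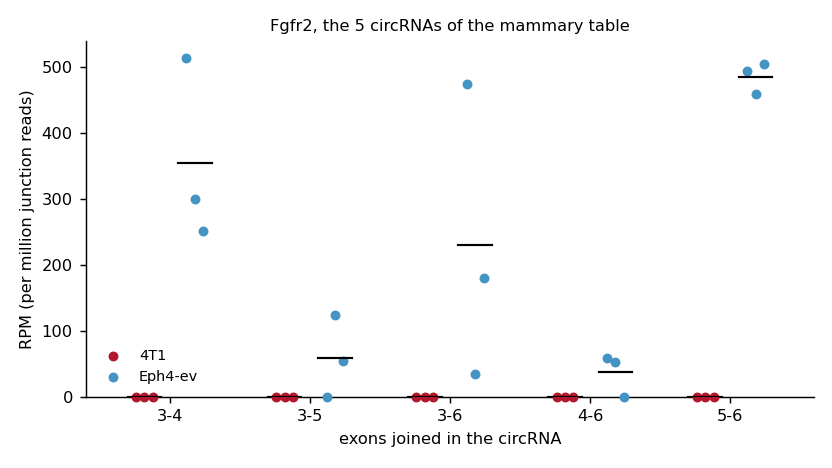
Level of the 5 Fgfr2 circRNAs of the mammary table in RPM per library (points) with line means (bars), 4T1 left and Eph4-ev right. All 4T1 points are at 0; in Eph4-ev the exons 5 to 6 circle lies at 459 to 504 RPM, while the exons 3 to 6 circle runs from 35.3 to 474 RPM.

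The proportions of the Fgfr2 circles changed between the Eph4-ev libraries. Reads of exons 5 to 6 over exons 3 to 6 were 1.04, 13 and 2.8 in the 3 libraries, with exact intervals of 0.571 to 1.905, 3.25 to 113 and 1.32 to 6.46, so that the first did not overlap the second. Against exons 3 to 4 the ratios were 0.962, 1.53 and 2, with overlapping intervals (0.533 to 1.73, 0.799 to 3.00 and 1.02 to 4.11). Over the 188 reads of Fgfr2 the circles took 42.0% (exons 5 to 6), 30.3% (exons 3 to 4), 19.1% (exons 3 to 6), 5.32% (exons 3 to 5) and 3.19% (exons 4 to 6). Exon 3 opened 103 of these reads and exon 6 closed 121. In Eph4-ev 407 of 3253 hosts had 5 or more circRNAs with reads, where the median host had 2.

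All 5 Fgfr2 circles with reads end before exon 7, so the exons that separate the IIIb splice form of epithelial cells from the IIIc form of mesenchymal cells lie outside them. These junction reads therefore do not show which form of the receptor the Eph4-ev cells made.

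Another row of the tables names Fgfr2 only in its column of circBase host names, while its own gene column gives Zranb1 (chr7:132960611-132966694). It is no member by the rule. It had 0 reads in each 4T1 library against 5, 1 and 0 in Eph4-ev, and 1, 2 and 0 in B16F10 against 0, 0 and 2 in Melan-a. It lies in the far end of the annotated Fgfr2 span, outside transcript Fgfr2-215 (130163709 to 130266191).

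The structure of the circles was described next, since it played no part in choosing the genes. None of the 17 circRNAs contained the start codon of its host. The spliced length was a multiple of 3 in 4 of 11 Epha3 circRNAs and in 5 of 6 of Fgfr2. The share was 37.6% of the 12100 circRNAs with reads that could be matched to exons of 1 transcript. The Fgfr2 count includes the exons 10 to 13 circle, which had 0 reads and so is not in that background. Members share exons and splice sites, so they are not independent and no test was made. In each of these 9 circles the frame of the receptor ran around the whole circle without a stop codon and with at least 1 in-frame ATG. They hold coding exons only, so a stop in that frame could arise only at the junction, and its absence was nearly fixed in advance. The Epha3 circle of exons 4 to 5 held 2 such ATGs over 164 codons, and the Fgfr2 circles of exons 5 to 6, 3 to 4 and 3 to 6 held 3, 2 and 5 over 98, 115 and 213 codons.

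The exon 3 circle of Epha3, at 661 bases, shifts the frame at each pass of the junction. Its longest ATG-initiated frame across the back-splice had 239 codons before a stop. Frames are a property of the sequence, and no value here bears on translation.

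The introns beside the main Epha3 circles are long. Those flanking exon 3 measure 70532 bases upstream and 119331 bases downstream, and the shorter of them is at or above that of 99.4% of 12073 circRNAs, whose median is 4018 bases. Exons 4 to 5 are flanked by 119331 and 39240 bases, with the shorter at or above that of 97.8% of circRNAs. For Fgfr2 the shorter flanking intron of exons 5 to 6 and of exons 3 to 4 is the same 12407-base intron between exons 4 and 5, at or above that of 84.5%. That of exons 3 to 6 has 17824 bases, at or above that of 91.1% of circRNAs. The least abundant Fgfr2 circle with reads, exons 4 to 6, is beside an intron of 1100 bases, at or above that of 15.3%. Rarely read Epha3 circles also lie beside long introns. Their shorter one is at or above that of 92.6% for exons 2 to 3 and of 86.7% for exons 4 to 15. For exons 8 to 11, with more reads, it is at or above that of 69.6%. A link between intron length and level was not tested. The exon 3 circle of Epha3 has 1 exon and 661 spliced bases and the exons 4 to 5 circle 2 exons and 492 bases, against medians of 3 exons and 480 bases over the circRNAs matched to 1 transcript.

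By pattern over the 12 libraries, host genes were ranked by Pearson's r with each receptor on log2 CPM, among 1671 hosts listed in both tables with at least 30 reads. For Epha3, whose mammary values were taken as 0, the closest hosts were Eefsec (r = 0.984), Gnptg (0.965), Dmxl2 (0.956), Hipk3 (0.955) and Dact3 (0.951). Eefsec, which encodes the elongation factor for selenocysteine, had 154 reads in 4T1, 377 in Eph4-ev, 1004 in B16F10 and 664 in Melan-a, so its order of lines resembled that of Epha3 on a far narrower range. For Fgfr2 they were Nt5dc3 (0.995), Zfpm2 (0.995), Prkd1 (0.991), Psd3 (0.990) and Ptchd4 (0.989), each with 0 reads in 4T1 and B16F10, 30 to 190 in Eph4-ev and at most 1 in Melan-a. With so few line levels, any host read in the same line scores high, and the libraries of a line share its depth. Each r also mixes both separately made tables, so differences between the tables enter it. These values describe the pattern only.

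Other genes of the pathways were then examined as host sums, with edgeR's quasi-likelihood test over all hosts that passed the filter on low counts and Benjamini-Hochberg adjustment. In 4T1 over Eph4-ev, 6.86% of 1515 hosts were called higher and 10.6% lower at an adjusted p under 0.05 (17.5% in either direction), with a median log2 fold of -0.09. In B16F10 over Melan-a, 2.78% of 898 hosts were called higher and 4.34% lower (7.13%), with a median of 0.00. This split, 25 higher and 39 lower, was 34 and 32 with total reads alone and 40 and 38 with DESeq2. The filter keeps few members of each list, so the counts below cover only what was read deeply enough. A host can pass it through the reads of a single line, the line where it is high. Below this is marked for some hosts and not for all to which it applies.

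Of 22 Eph receptors and ephrins, 5 had reads in the mammary lines and 3 could be tested. The count called was 0 by edgeR, with 2 at an unadjusted p under 0.05, and 1 by DESeq2; the median log2 fold of the 3 was 1.96. Efnb2, which encodes the ligand ephrin-B2, had 13, 7 and 17 reads in 4T1, against 8, 4 and 6 in Eph4-ev (edgeR log2 fold 2.05 with SE 0.70, adjusted p = 0.0576), the host that DESeq2 called. Its receptor Ephb2 had 4, 4 and 14 reads in 4T1, against 2, 5 and 3 in Eph4-ev (edgeR log2 fold 1.96 with SE 0.90, adjusted p = 0.149). Efnb2 and Ephb2 passed the filter on low counts only through their 4T1 reads. The counts called and the median of 1.96 are therefore given without weight on the list. Epha2, an epithelial receptor for ephrin-A ligands, had 4, 4 and 40 reads in 4T1, against 43, 48 and 50 in Eph4-ev (edgeR log2 fold -0.85 with SE 0.49, adjusted p = 0.267). The reads of 4T1 replicate 3 set the Epha2 value: without it edgeR gave a log2 fold of -2.05 (adjusted p = 0.0258).

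In the melanocyte lines 4 of the 22 had reads and Epha3 alone passed the filter. Epha5 had 4, 1 and 0 reads in B16F10 against 0 in each Melan-a library, a bound of at least 2.60-fold higher in B16F10. This bound takes so few reads as exact that it shows no higher level. Epha7 had 0, 1 and 2 reads in B16F10 against 0, 2 and 0 in Melan-a, and Efna5, an ephrin-A ligand, had 1, 2 and 0 in B16F10 against 0, 0 and 2 in Melan-a. Epha3 thus held most of the reads of this family in both lines.

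Of 20 partners that act with Eph receptors, 13 had reads in the mammary lines and 9 were tested, with 1 called higher, 0 lower and a median log2 fold of -0.01. The called host was Chn1, which encodes alpha-chimaerin, a Rac-inactivating protein downstream of EphA4. It had 4, 3 and 23 reads in 4T1 and 0 in each Eph4-ev library, at least 20.9-fold higher in 4T1. Chn1 passed the filter on low counts only through its 4T1 reads, so its call (edgeR adjusted p = 0.00699) is given without weight on the list. The call was lost without Eph4-ev replicate 2 (edgeR adjusted p = 0.0662), and without 4T1 replicate 3 the host no longer passed the filter. Nck2, an adaptor that binds phosphorylated receptors, had 5, 12 and 38 reads in 4T1, against 14, 9 and 4 in Eph4-ev (edgeR log2 fold 1.77 with SE 0.65, adjusted p = 0.0758, and DESeq2 adjusted p = 0.0484). Nck2 passed the filter on low counts only through its 4T1 reads, so these values are given without weight on the list. Adam10, whose protease cleaves ephrins in complex with their receptors, had 10, 11 and 8 reads in 4T1, against 45, 56 and 38 in Eph4-ev (edgeR log2 fold -1.11 with SE 0.49, adjusted p = 0.136). Itsn1 and Vav3 had log2 folds of -1.08 (SE 0.60) and -0.57 (SE 0.35), with edgeR adjusted p of 0.245 and 0.293.

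In the melanocyte lines 11 of these 20 had reads and 5 were tested. The count called was 0 by edgeR and by DESeq2, with 0 at an unadjusted p under 0.05, and the median log2 fold was -0.22. The largest in size was Nck2, with 0, 0 and 5 reads in B16F10, against 3, 8 and 11 in Melan-a (edgeR log2 fold -1.52 with SE 1.16, adjusted p = 0.49). Itsn1 had a log2 fold of 0.92 (SE 0.61), Abl1 of 0.75 (SE 0.69), Adam10 of -0.29 (SE 0.42) and Yes1 of -0.22 (SE 0.62), each smaller than 2 SE.

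Of 32 FGF ligands, receptors and co-receptors, circles of 2 had reads in the mammary lines, and Fgfr2 alone passed the filter. The other was Fgfr1, with 0 reads in each 4T1 library against 1, 0 and 1 in Eph4-ev, under the floor. In the melanocyte lines 0 of the 32 had reads. Fgfr2 was therefore the source of nearly all circular reads of this family in the 4 lines.

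Of 30 partners and feedback genes of FGF signalling, 16 had reads in the mammary lines and 9 were tested. The count called was 0 by edgeR, with 1 at an unadjusted p under 0.05, and 1 by DESeq2; the median log2 fold was -0.40. Gab1, an adaptor that links the receptor to PI3K, had 0, 5 and 3 reads in 4T1, against 26, 45 and 16 in Eph4-ev (edgeR log2 fold -2.38 with SE 0.82, adjusted p = 0.0582; DESeq2 adjusted p = 0.0233). Its level was 0 to 282 RPM in 4T1 and 288 to 794 RPM in Eph4-ev. The nearest libraries were closer than 1 read of 4T1 replicate 2 (56.4 RPM), so the lines were barely apart. Gab1 passed the filter on low counts only through its Eph4-ev reads. Esrp1, the splicing factor that promotes the epithelial IIIb form of Fgfr2, had 7, 13 and 10 reads in 4T1, against 30, 45 and 55 in Eph4-ev (edgeR log2 fold -1.0 with SE 0.49, adjusted p = 0.18). Sos1 and Sos2, the exchange factors that activate Ras, had log2 folds of -1.76 (SE 1.03) and 1.35 (SE 0.79), and Spred2, an inhibitor of the Ras-MAPK pathway, of -0.40 (SE 0.25), with edgeR adjusted p of 0.271, 0.274 and 0.301.

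In the melanocyte lines 17 of these 30 had reads and 5 were tested, with 0 called by edgeR and DESeq2, 0 at an unadjusted p under 0.05 and a median log2 fold of 0.55. Log2 folds were -0.68 (SE 0.38) for Spred1, 0.60 (SE 0.39) for Spred2, 1.09 (SE 0.83) for Sos2, 0.55 (SE 0.70) for Gab1 and -0.07 (SE 0.77) for Sos1, with edgeR adjusted p between 0.344 and 0.972.

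Of 40 other receptor tyrosine kinases, 10 had reads in the mammary lines and 5 were tested, with 1 called lower, 0 higher and a median log2 fold of 0.33. The called host was Met, the receptor for hepatocyte growth factor, with 4, 0 and 8 reads in 4T1, against 47, 37 and 31 in Eph4-ev (edgeR log2 fold -2.36 with SE 0.68, adjusted p = 0.0269). Met passed the filter on low counts only through its Eph4-ev reads, so its call is given without weight on the list. Leaving out any 1 of the 3 Eph4-ev libraries ended the call (edgeR adjusted p = 0.053 to 0.138). Ddr1, a collagen receptor, had an edgeR log2 fold of 1.5 (SE 0.76, adjusted p = 0.198), and the insulin-family receptors Igf1r and Insr of 0.33 (SE 0.23) and 0.37 (SE 0.27), neither called. Lmtk2 had a log2 fold of -0.63 (SE 0.96). Circles of Egfr, Erbb2 and Erbb3 also had no reads in 4T1. Egfr had 11, 5 and 13 reads in Eph4-ev (at least 4.63-fold lower in 4T1). Erbb2 had 6, 3 and 11 there (at least 3.19-fold lower) and Erbb3 3, 0 and 4. The Erbb3 bound of 1.12-fold takes its 7 Eph4-ev reads as exact, so it shows no lower level. Of 3617 mammary hosts, 2731 had reads in 4T1 and 3253 in Eph4-ev, so hosts at 0 in 4T1 were common. Egfr, Erbb2 and Erbb3 did not pass the filter on low counts and were named after their values were seen.

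In the melanocyte lines 11 of the 40 had reads and 5 were tested, with 1 called higher, 0 lower and a median log2 fold of -0.67. Met was again the called host, on the other side: it had 214, 205 and 204 reads in B16F10, against 15, 68 and 16 in Melan-a (edgeR log2 fold 3.28 with SE 0.41, adjusted p = 0.000287). Epha3 and Met were thus both higher in B16F10, and Fgfr2 and Met both lower in 4T1, although Met was among the genes known from earlier results and its agreement is no independent support. Insr had a log2 fold of -1.0 (SE 0.49), Lmtk2 of -1.34 (SE 0.78), Ddr1 of 1.45 (SE 0.94) and Igf1r of -0.67 (SE 0.95), with edgeR adjusted p of 0.264 to 0.76.

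**Figure D5:**
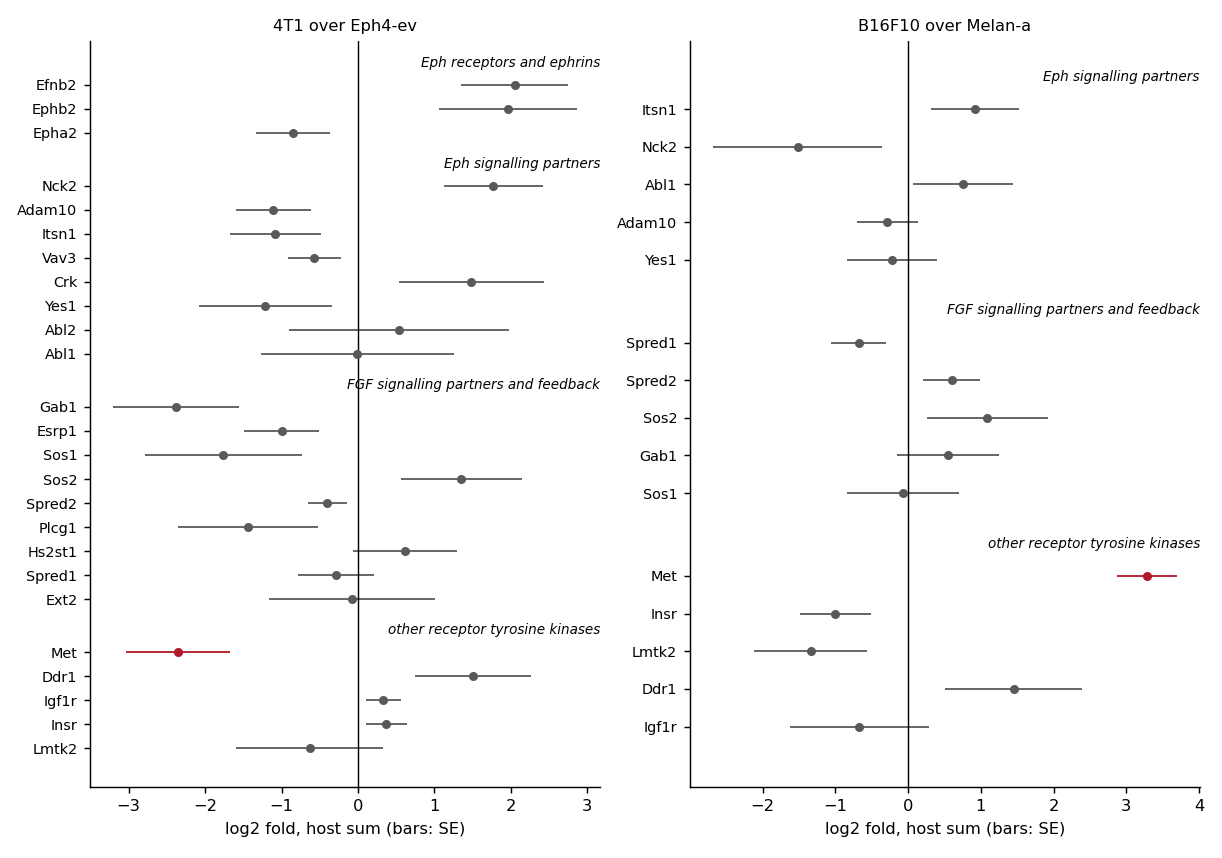
Log2 fold of host sums for tested genes of the 4 pathway lists that have such genes, 4T1 over Eph4-ev (left) and B16F10 over Melan-a (right), with bars of 1 SE and an edgeR adjusted p under 0.05 in red. Met lies at -2.36 in the mammary lines and at 3.28 in the melanocyte lines; Fgfr2 and Epha3, whose contrasts picked them, and Chn1, which has 0 reads in Eph4-ev, are left out.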

How the data were processed

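Circular RNA was sequenced in 4T1, Eph4-ev, B16F10 and Melan-a cells, with 3 libraries per line, and 1 table was deposited per lineage. Per the labels' protocols, the callers were CIRI2, run after BWA-MEM, and CIRCexplorer2, run after TopHat and TopHat-Fusion. Per the submitters' processing notes, coordinates are on mm10. Their joint use, the filters and the annotation were not stated in any source used here. The count columns deposited by the authors hold back-spliced junction reads per circRNA, per the file headers. The RPM columns hold, per the file headers, the authors' scaled values: each count was divided by the total of its column. RPM gave whole reads within 0.01 for 100% of values, with a largest difference of 0 to the deposited counts, so the counts were tested and RPM describes levels. The number of columns without a sample was 0.

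Members were rows whose gene column was exactly Epha3 or Fgfr2; host sums add the circRNAs with that single host, so rows with several hosts (160 mammary, 201 melanocyte) stayed out. In the melanocyte table, 4053 of 12910 circRNAs have 0 reads, and 0 of 9492 do so in the mammary lines. Exons, codons, introns and sequences come from GENCODE M21, with coordinates 1-based. The quasi-likelihood F test of edgeR 4.0.16 (R 4.3.3) was run within each lineage with TMM factors, after filterByExpr at 5 reads (minimum count) and 10 reads (minimum total), and calls were made at a Benjamini-Hochberg adjusted p under 0.05. Log2 folds are tumour line over non-tumour line, with SE from the F statistic. Bounds use a floor of 3 reads over the line at 0 and take the reads of the other line as exact. Ratios of counts have exact 95% intervals, and both are scaled by total reads without TMM factors. Alternatives were DESeq2 1.42.0, RLE factors, total reads alone, a minimum count of 10, no filter, the replicate number as a block, hosts of circRNAs with several hosts, and leaving out each library. The test of the difference between lineages was added after seeing the data.

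The text names every member, the called hosts and up to 5 tested hosts with the smallest p of each list, and the 5 hosts most alike in pattern (prior count of 2). The members and lists were chosen with earlier results of these data known. The planned tests of Epha3 in the mammary lines and of Fgfr2 in the melanocyte lines gave no value.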

Additional observations from a re-analysis of the deposited data

Results flagged for a closer look

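Met, the receptor for hepatocyte growth factor, moved in opposite directions in the lineages. Its host sum had a log2 fold of -2.36 in 4T1 over Eph4-ev and of 3.28 in B16F10 over Melan-a, and the difference between these changes was 5.64 on the log2 scale (SE 0.64, edgeR interaction over 12 libraries, adjusted p = 4.21e-07 over 1341 hosts, of which 130 were called). The test was added after seeing the data. Met was chosen with earlier results of these data known, so this p is no independent support. In the mammary fit Met passed the filter on low counts only through its Eph4-ev reads. Leaving out any single Eph4-ev library ended its mammary call. Met was higher in each of the 3 B16F10 libraries than in any Melan-a library and lower in each of the 3 4T1 libraries than in any Eph4-ev library.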

How the results depend on the processing

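Calls of circRNAs in 4T1 over Eph4-ev numbered 325 and ranged from 72 to 247 without 1 library, and those of host genes numbered 265 and ranged from 73 to 266, lowest without Eph4-ev replicate 2. In B16F10 over Melan-a the counts were 95 circRNAs (42 to 145) and 64 hosts (32 to 111), highest without Melan-a replicate 2. Of the lists, Eph receptors and ephrins gave 0 calls in the mammary lines. Efnb2 was called higher with total reads alone (adjusted p = 0.0419), a minimum count of 10 (0.0357) and DESeq2 (0.0292). Without 1 library this list gave 0 to 1 calls, and the 1 was Epha2, lower, without 4T1 replicate 3 (0.0258). Eph partners gave 1 call, 2 under DESeq2 and 0 to 2 without 1 library (Nck2 joined without 4T1 replicate 1, 0.0458, and Itsn1 without 4T1 replicate 2, 0.0468), and with a minimum count of 10 the 1 call was Nck2 in place of Chn1. FGF partners gave 0 calls and 1, Gab1, with no filter (0.017), a minimum count of 10 (0.0496) and DESeq2, and 0 to 1 without 1 library. Other receptor tyrosine kinases gave 1 call, 2 with no filter and under DESeq2, the second being Egfr (0.0435 and 0.0429), and 0 to 1 without 1 library. In the melanocyte lines the Eph partner and FGF partner lists gave 0 calls and the other receptor tyrosine kinases 1, Met, under every alternative run; the FGF receptor list had 0 hosts to test, and the call of the Eph receptor list was Epha3, whose contrast chose it. With no filter more hosts of low counts are tested; for the other settings the cause was not tested. No alternative reversed a call. The median log2 fold of mammary circRNAs was -0.22 and ran from -1.09 with no filter, -0.47 with DESeq2 and -0.43 without 4T1 replicate 3 to -0.01 with total reads alone; that of mammary hosts was -0.09 and ran from -0.47 with no filter to 0.04 with total reads alone; that of melanocyte hosts was 0.00, and 0.10 with total reads alone. The labels name no pairing of the libraries by replicate number. Same-numbered libraries of both lines had correlations of their deviations between -0.06 and 0.07, against -0.12 to 0.11 for differently numbered ones. With 3 libraries per line these values cannot show whether the numbers pair them. With the number as a replicate block, 248 circRNAs and 217 hosts were called in 4T1 over Eph4-ev and 78 and 69 in B16F10 over Melan-a, and the list counts were those given. Epha3 in the mammary lines and Fgfr2 in the melanocyte lines gave no value under any alternative. At 17.7 to 64.2 RPM per read, circles under about 3 reads per line were out of reach.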
